A study of Mus musculus with 2 samples.

Results

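The 9 genes described here are genes of megakaryocytes and platelets. Pf4 and Ppbp are platelet chemokines, and Gp1ba, Gp1bb, Gp5 and Gp9 are subunits of the glycoprotein Ib-IX-V complex. Tbxa2r, Clec1b and Treml1 are receptors. All 9 genes were taken by symbol, as every probe set of the array whose annotation names 1 of them and no other gene. That gave 9 probe sets for 8 of the 9 genes, out of 20380 probe sets for 12393 genes. Gp1ba, the subunit that holds the binding site for von Willebrand factor, had no probe set listed and was not analysed here. The allograft group was 1 array of total RNA labelled as an allograft from the femur of c57Bl/6 mice, and the autograft group was 1 array of total RNA labelled as an autograft from the same strain and bone. An allograft comes from another animal of the species, and an autograft from the animal that receives it. The labels do not give the time after grafting, the age or number of animals, or whether c57Bl/6 was the donor or the host, so the samples stand for graft types only as far as their titles go.

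Megakaryocytes are the large, polyploid marrow cells that shed platelets into the blood vessels of the marrow. They fill platelets with granules that carry chemokines such as Pf4 and Ppbp, and they coat them with the glycoprotein Ib-IX-V complex, through which platelets catch on von Willebrand factor at an injured vessel wall. Further receptors then activate the platelet: the thromboxane receptor Tbxa2r answers thromboxane A2 released by other platelets, and Clec1b binds podoplanin.

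These genes lie on 6 chromosomes. In the RefSeq gene table Ppbp and Pf4 are next to each other on chromosome 5 with no other protein-coding gene between them, and Gp1bb overlaps Septin5 on chromosome 16. Transcription in megakaryocytes is known to depend on GATA1 and on factors of the ETS family such as FLI1, so the 300 bases around each start site were searched on both strands for GATA words (the core GATA with A or T before it and A or G after it, such as AGATAA) and for ETS words (the core GGAAG with A or C before it, such as AGGAAG). The GATA and ETS words do not overlap each other in the promoters shown. A GATA word was found in 5 of the 9 genes and an ETS word in 6 of the 9. Counted by promoter, a GATA word was in 5 and an ETS word in 6 of their 10 promoters. Of all 32851 promoters of this length, 29.8% held a GATA word and 46.5% an ETS word. The promoters below are those of Pf4, of the 3 measured subunits of the glycoprotein complex, which all hold the ETS word AGGAAG on the opposite strand, and of Tbxa2r, the only one of the genes past a 2-fold difference. A promoter was listed for all 9 genes. The printed ones run 5′ to 3′ on the gene's strand, from 250 bases before the start site to 50 after it, with the matches in capitals, and come from RefSeq on build GRCm38.p6.
Pf4, chr5:90772185-90772484, plus strand: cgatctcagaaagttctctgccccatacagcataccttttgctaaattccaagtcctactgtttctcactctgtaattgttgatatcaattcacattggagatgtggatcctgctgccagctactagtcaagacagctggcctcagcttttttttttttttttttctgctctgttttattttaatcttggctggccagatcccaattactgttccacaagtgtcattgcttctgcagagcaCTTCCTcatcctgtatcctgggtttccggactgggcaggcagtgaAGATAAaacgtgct
Gp1bb, chr16:18622354-18622653, minus strand: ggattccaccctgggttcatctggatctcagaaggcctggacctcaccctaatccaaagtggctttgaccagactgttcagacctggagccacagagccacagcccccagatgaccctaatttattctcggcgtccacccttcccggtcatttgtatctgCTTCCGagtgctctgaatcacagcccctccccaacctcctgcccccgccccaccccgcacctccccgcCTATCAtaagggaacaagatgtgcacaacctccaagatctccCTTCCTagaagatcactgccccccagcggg
Gp5, chr16:30310732-30311031, minus strand: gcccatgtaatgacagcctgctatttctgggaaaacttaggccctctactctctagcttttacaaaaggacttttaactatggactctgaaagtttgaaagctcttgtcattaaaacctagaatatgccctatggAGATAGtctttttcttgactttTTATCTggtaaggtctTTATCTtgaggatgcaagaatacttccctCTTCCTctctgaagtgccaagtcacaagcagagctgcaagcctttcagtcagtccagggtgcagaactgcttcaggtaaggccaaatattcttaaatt
Gp9, chr6:87777820-87778119, plus strand: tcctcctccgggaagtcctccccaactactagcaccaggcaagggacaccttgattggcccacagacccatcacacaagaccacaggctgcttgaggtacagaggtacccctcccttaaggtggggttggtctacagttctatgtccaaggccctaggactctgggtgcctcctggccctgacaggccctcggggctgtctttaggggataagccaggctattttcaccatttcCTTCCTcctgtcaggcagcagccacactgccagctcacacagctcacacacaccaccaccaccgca
Tbxa2r, chr10:81328018-81328317, plus strand: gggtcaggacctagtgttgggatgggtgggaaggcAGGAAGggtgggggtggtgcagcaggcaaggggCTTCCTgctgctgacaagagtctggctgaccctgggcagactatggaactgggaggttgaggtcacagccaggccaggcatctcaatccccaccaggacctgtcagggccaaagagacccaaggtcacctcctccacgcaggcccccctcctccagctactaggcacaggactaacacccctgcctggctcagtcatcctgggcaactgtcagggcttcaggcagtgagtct
A match is a description of these letters, and a window without one says nothing about the factor. The Pf4 promoter held 1 GATA and 1 ETS word, Gp1bb 1 and 2, Gp5 3 and 1, and Gp9 an ETS word alone. In the window printed for Tbxa2r there were 2 ETS words and no GATA word, and the window of its second start site held neither. Among the genes not printed, Gp1ba held 3 GATA words and 1 ETS word, and Clec1b held 2 GATA words alone. Ppbp and Treml1 held neither word.

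Each array gave 1 intensity per probe set on a linear scale. The level of one probe set cannot be set against that of another, so only its values on both arrays are compared. The floor was 175.2, the median of all non-control values. A log2 ratio is the allograft minus the autograft value after lower intensities were set to the floor. With 1 array per graft type there is no replicate error, no p-value could be given, and each value is only as precise as 1 array allows. Of the 12393 genes, 7833 were above the floor on 1 or both arrays, with a median log2 ratio of -0.08. The arrays also differed along intensity, with median log2 ratios over 20 intensity bins that ran from -0.16 to 0.27, the highest in the brightest bin. As a measure of disagreement within these arrays, the log2 ratios of 2 probe sets of one gene differed with an SD of 0.44 over 1925 genes. This SD is of a difference between 2 ratios and holds no variation between animals or repeat arrays. The ratio of 3' to 5' intensity of the beta-actin controls was 1.77 for the allograft and 1.19 for the autograft, and that of the Gapdh controls 0.194 for the allograft and 0.0349 for the autograft. The part of RNA quality in the differences below was not tested.

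Of the 8 platelet genes measured, 7 were above the floor in both grafts and differed by less than 1.5-fold. On the allograft array 8 of their 9 probe sets exceeded the floor, and all 9 did so on the autograft array. Among the 7 genes above the floor on both arrays, the largest difference was 1.38-fold and the smallest 1.01-fold. At 2-fold 0 of the 8 measured genes were higher in the allograft and 1, Tbxa2r, was lower. Among all genes above the floor, 0.868% were 2-fold higher, 0.753% lower and 1.62% 2-fold apart in either direction. At 1.5-fold Tbxa2r was again the 1 gene of the 8, where 10.6% of all genes were that far apart. The median log2 ratio of the 8 genes was -0.03, beside -0.08 for all genes, with 3 genes above 0 and 5 below.

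**Figure D1:**
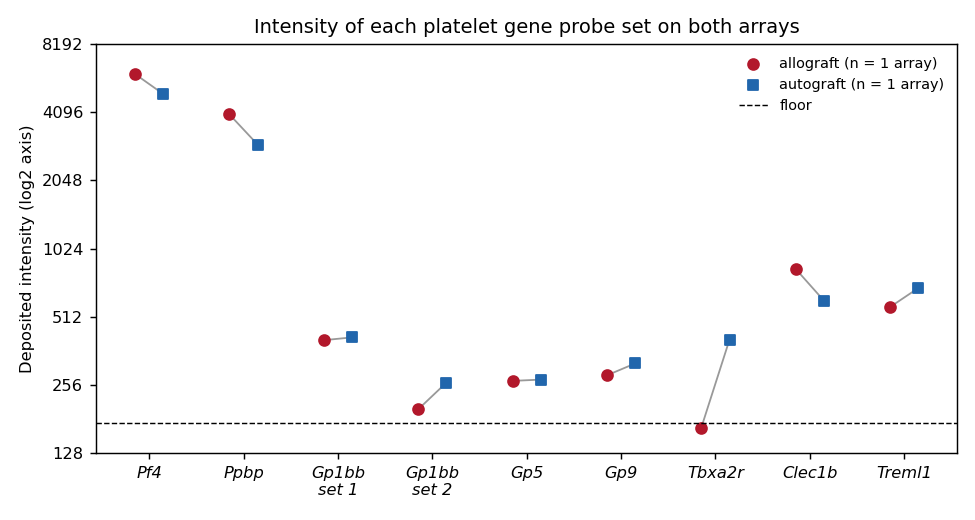
Deposited intensity on a log2 axis for each probe set of the platelet genes, with the allograft array as a circle on the left of each pair and the autograft array as a square on the right (1 array each). Only Tbxa2r crosses the floor of 175.2 (dashed line), and probe sets are to be read within a pair, not against each other.

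Both platelet chemokines were higher in the allograft. Pf4, also called CXCL4, is a heparin-binding chemokine of the alpha granules. It read 6036 in the allograft and 4923 in the autograft, a log2 ratio of 0.29 or 1.23-fold. Ppbp, the precursor of beta-thromboglobulin and of the neutrophil attractant CXCL7, read 4005 in the allograft and 2945 in the autograft, a log2 ratio of 0.44 or 1.36-fold. The ratio of Ppbp was as large as the SD of 0.44 between probe sets of one gene, and that of Pf4 was smaller. That SD is not the error of a single ratio. Pf4 lay among the brightest genes, whose median log2 ratio was itself 0.27, and after removal of the trend with intensity its log2 ratio was 0.09. Ppbp then stood at 0.34.

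The probe sets of the glycoprotein Ib-IX-V subunits differed by at most 1.31-fold between the grafts. Gp1bb, the beta chain linked to the alpha chain by a disulfide bond, has 2 probe sets. One read 404 in the allograft and 416 in the autograft, a log2 ratio of -0.04, and the other 200.2 in the allograft and 263 in the autograft, a log2 ratio of -0.39. The probe sets thus differ by 0.35, less than the SD given above. Another probe set, annotated to both Septin5 and Gp1bb and therefore not counted here, read 502 in the allograft and 618 in the autograft, at -0.30. Gp5, the subunit that thrombin cleaves, read 267 in the allograft and 271 in the autograft, a log2 ratio of -0.02. Gp9, which is needed for the complex to reach the platelet surface, read 283 in the allograft and 319 in the autograft, a log2 ratio of -0.17. No direction can be given for Gp5 or for the brighter Gp1bb probe set, because each lay above 0 under the 4 other scalings tried (up to 0.09 and 0.07), whereas Gp9 and the dimmer Gp1bb probe set lay below 0 under each of them.

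The 3 receptors differed in direction. Tbxa2r, the thromboxane A2 receptor, read 166 in the allograft, just under the floor, and 407 in the autograft. Against the floor it was at least 2.32-fold lower in the allograft, and the log2 ratio of the intensities as deposited was -1.29. Of the genes above the floor on both arrays, 0.296% had a lower log2 ratio than its bound. Tbxa2r has 1 probe set, so no second reading was at hand. Which cells of the bone gave the Tbxa2r signal was not tested. Clec1b, the podoplanin receptor known as CLEC-2, lay on the other side, with 834 in the allograft and 604 in the autograft, a log2 ratio of 0.47 or 1.38-fold. Of the genes above the floor on both arrays, 93.2% had a lower log2 ratio. Treml1, the alpha-granule receptor TLT-1 that moves to the surface of activated platelets, read 566 in the allograft and 686.5 in the autograft, a log2 ratio of -0.28. The signs of Tbxa2r, Clec1b and Treml1 were the same under every scaling tried, but a change of scaling does not show the error of 1 array. The ratio of Treml1 was smaller than the SD of 0.44 between probe sets of one gene, and that of Clec1b was close to it.

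**Figure D2:**
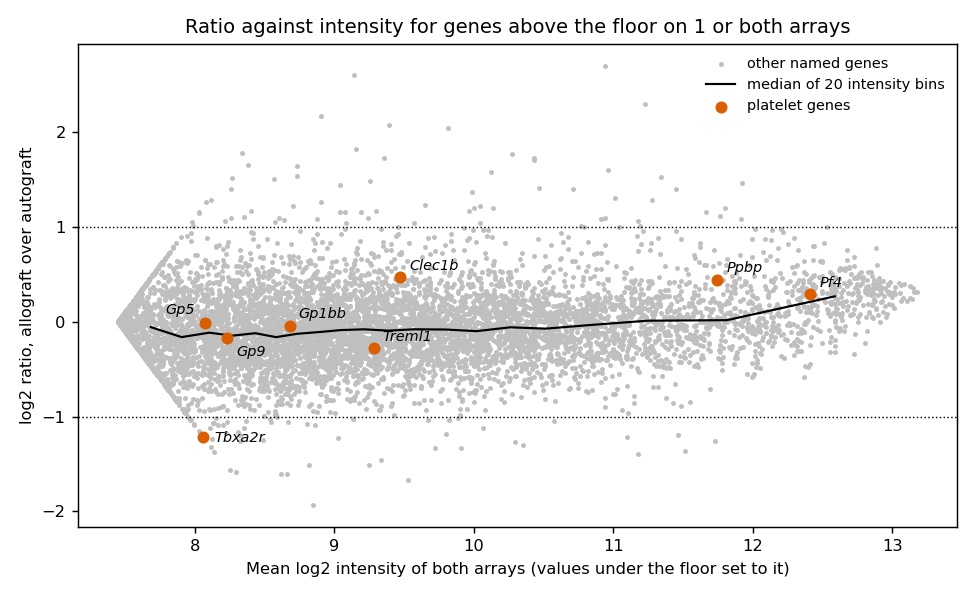
Log2 ratio of allograft over autograft against the mean log2 intensity of both arrays, for genes above the floor on 1 or both arrays (grey), with the 8 platelet genes in orange, the median of 20 intensity bins as a line and 2-fold as dotted lines. Tbxa2r lies below the lower dotted line at -1.22, and Pf4 at 0.29 lies close to the bin median of 0.27.

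The platelet genes were set beside 70 further genes of megakaryocytes and platelets, grouped by role. Of these, 61 had a probe set of their own and 52 were above the floor on 1 or both arrays. Their median log2 ratio was 0.03, with 28 above 0 and 24 below, and 53.8% above 0 compares with 40.4% of all genes above the floor. At 2-fold 1 gene (1.92%) was higher and 0 were lower, beside 0.868% higher and 0.753% lower among all genes above the floor. No probe set carried the platelet tubulin Tubb1 or the cyclooxygenase Ptgs1 as its single symbol.

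Transcription factors had a median log2 ratio of 0.22 over 12 genes, 9 of them above 0. Of those 9, 2 were bounds with the autograft under the floor. With the mean over the probe sets of each gene, or with the dimmest one, the median was 0.15. Tal1, a helix-loop-helix factor of blood precursors, was the 1 gene past 2-fold, at 868 in the allograft and 319 in the autograft, a log2 ratio of 1.44. Nfe2, which drives the last steps of platelet formation, read 780 in the allograft and 433.5 in the autograft, at 0.85. Gata1 read 448 in the allograft and 279.6 in the autograft, at 0.68. Fli1, an ETS factor of megakaryocytes, was closer and read 320.1 in the allograft and 262 in the autograft, a log2 ratio of 0.29. Lyl1, a relative of Tal1, was lowest at -0.28. Tal1, Nfe2 and Gata1 also act in red cell precursors, and the erythroid markers stood higher in the same array. All 6 erythroid markers with a probe set were above the floor and above 0, with a median log2 ratio of 1.04, and they summed to an intensity of 18004 in the allograft and 8956.5 in the autograft. Their part in these ratios was not tested, and in whole bone more cells of a type and more RNA per cell cannot be told apart.

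Adhesion and collagen receptors had a median log2 ratio of -0.04 over 6 genes. Itga2b, the alpha chain of the fibrinogen receptor and an early marker of the lineage, read 435 in the allograft and 400 in the autograft, a log2 ratio of 0.12. Its beta chain Itgb3 was below the floor on both arrays, at 25.9 in the allograft and 29 in the autograft. Cd47 was highest at 0.34 and Cd36 lowest at -0.40, although the other probe sets of Cd36 stood at 0.40 and -0.61. Of the receptors for nucleotides, thrombin and other soluble agonists, 2 of the 7 with a probe set were above the floor, F2r at 0.07 and F2rl2 at -0.22. F2rl3 of the same family was below the floor on both arrays, at 57.3 in the allograft and 82 in the autograft. Which cells of the bone gave the F2r signal was not tested.

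Granule proteins had a median log2 ratio of 0.09 over 10 genes, 6 of them above 0. Srgn, the proteoglycan serglycin that packs granules, was highest at 4906 in the allograft and 3013 in the autograft, a log2 ratio of 0.70. Srgn is also made by neutrophil precursors, whose markers were all above 0 (8 of 8, median 0.36). These markers summed to an intensity of 48377 in the allograft and 37252 in the autograft. Camp, Ngp, S100a8 and Lcn2 among them lay with the brightest genes, whose median log2 ratio was itself 0.27. The part of neutrophil precursors in the Srgn value was not tested. Tgfb1 was lowest at -0.57. Vwf, the ligand of the glycoprotein Ib-IX-V complex, read 588 in the allograft and 523 in the autograft, a log2 ratio of 0.17. Vwf is made by endothelium too, and 6 of 7 endothelial markers above the floor were below 0, with a median of -0.31. The marker at that median, Pecam1, was also counted among the adhesion receptors above. The 7 markers and the marker below the floor summed to 3114 in the allograft and 3703 in the autograft. The part of endothelium in the Vwf value was not tested.

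The remaining roles held no gene 2-fold apart. The 3 eicosanoid enzymes above the floor ran from -0.11 for Tbxas1, the thromboxane synthase that makes the ligand of Tbxa2r, to 0.30 for Alox12. Signalling genes had a median of -0.05 over 11 genes, between Fyn at -0.41 and Rgs18, a regulator of G protein signalling in platelets, at 0.46. Genes of the cytoskeleton and of platelet release had a median of -0.21 over 8 genes (0.04 with the dimmest probe set of each gene). They ran from Zyx, a focal adhesion protein, at -0.61 to Cnn3 at 0.43. The other Zyx probe set was higher in the allograft, at 187.1 there and 115.4, under the floor, in the autograft. Many genes of these roles are active in most cells of bone and marrow.

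**Figure D3:**
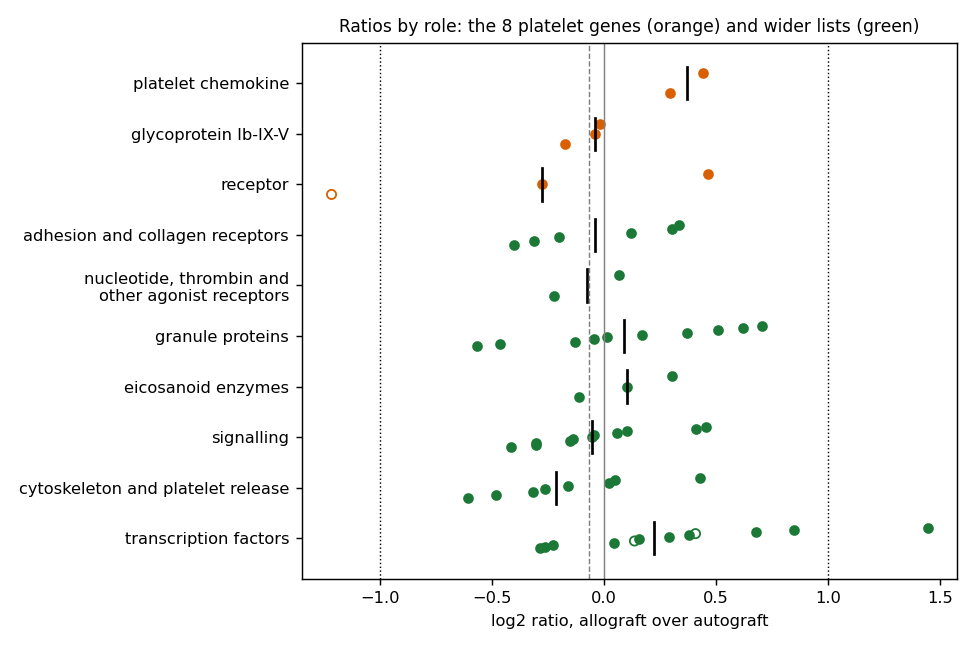
Log2 ratio of allograft over autograft for the 8 platelet genes (orange, top 3 roles) and for the 52 further genes above the floor (green), 1 point per gene, with open points for bounds and a vertical bar for the median of each role. The dashed line marks the median of genes above the floor on both arrays, -0.07, and the dotted lines mark 2-fold; Tbxa2r and Tal1 are the genes outside them.

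Markers of the labelled tissue were present on both arrays. All 7 osteoblast and osteocyte markers with a probe set were above the floor, with a median log2 ratio of -0.60, 4 of them below 0 and 3 above. They ran from -1.25 for Alpl, the alkaline phosphatase of mineralising cells, to 2.70 for Col1a1, a chain of type I collagen. Col1a1 read 4994 in the allograft and 771 in the autograft. Its other probe set read 2736 in the allograft and 31.3, under the floor, in the autograft. Col1a2 stood at 1.11. Mpo of neutrophils stood at 0.86 and Cdh5 of endothelium at -0.43, while Hbb-b1 had no probe set of its own. The 3 T cell markers with a probe set were below the floor on both arrays. Medians of the other markers were 0.60 for skeletal muscle (4 genes), 0.36 for B cells (3), 0.31 for osteoclasts (3), -0.15 for macrophages (4), -0.21 for mast cells (2) and -0.47 for cartilage (5). The median of the platelet genes, -0.03, thus lay between those of the erythroid and neutrophil markers, 1.04 and 0.36, and that of the endothelial markers, -0.31. These medians were not corrected for the trend with intensity, and no test of their differences could be made.

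**Figure D4:**
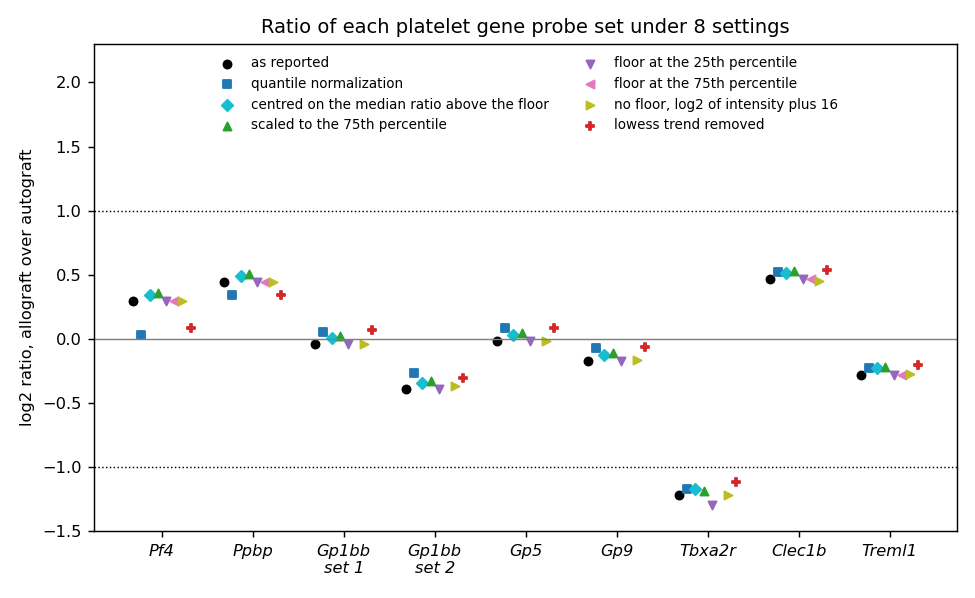
Log2 ratio of allograft over autograft for each probe set of the platelet genes as reported (black) and under 7 other settings of scaling and floor. Tbxa2r stays below the dotted 2-fold line wherever it has a ratio, between -1.29 and -1.11, Pf4 runs from 0.03 to 0.36, and Gp5 and the first Gp1bb probe set change sign.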

How the data were processed

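The deposited intensities, 1 per probe set and array on a linear scale, were used as they stand, since their 2% trimmed means (500.2 for the allograft, 500.1 for the autograft) lay within 10% of each other. How the authors read, background-corrected and scaled the arrays is not stated in the labels or the file. Of 22690 probe sets, 64 controls were left out, and 20380 of the rest had 1 gene symbol in the platform annotation. The Entrez identifiers of 20351 matched the RefSeq table (GRCm38.p6), and 0 symbols changed. Intensities under the median of the non-control values were set to it before log2. The probe set of highest mean intensity stood for its gene. Named were all platelet genes, and of the further lists the highest and lowest gene of each role, genes 2-fold apart, and Itga2b, Itgb3, Vwf, Gata1, Nfe2, Fli1, Tubb1 and Ptgs1. F2rl3 was named after its value was seen. The members and lists were chosen with earlier results of these data known. A withheld item is not reported here. The counting step was tested on simulated data with changes of 4-fold or more, placed in bright genes only. That test does not cover counts at 2-fold or genes near the floor, such as Tbxa2r. Figures were drawn with matplotlib 3.10.9; ratios and the lowess fit (span 0.4) used statsmodels 0.14.6, scipy 1.17.1, pandas 2.3.3 and numpy 2.4.6 under Python 3.11.15.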

Additional observations from a re-analysis of the deposited data

How the results depend on the processing

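Alternatives to the scaling, the floor, the probe set used, the fold and the handling of bounds were tried. The count of platelet genes at least 2-fold lower, 1 as reported, fell away (0 genes) once the floor was raised to the 75th percentile, where Tbxa2r and 3 other genes were below the floor on both arrays, 0 at 4-fold, and 0 when genes with a bound, such as Tbxa2r, were not counted. The count 2-fold higher was 0 in each setting. The median of the platelet genes ran from -0.10, with the mean over probe sets or the dimmest one, to 0.37 over the 4 genes above the 75th percentile; 5 genes lay above 0 and 3 below after quantile normalization, centring, 75th percentile scaling or removal of the trend. Of the 70 further genes, 1 was 2-fold higher as reported, 2 with the floor at the 25th percentile or with no floor, 0 with the floor at the 75th percentile or at 4-fold, and 5 at 1.5-fold, where 1 was lower. Over all genes 68 were higher and 59 lower (53.5% higher), against 84 and 46 when centred on the median, 77 and 38 after quantile normalization, 86 and 43 with 75th percentile scaling, and 80 and 35 (69.6% higher) with the trend removed. With the floor at the 25th percentile 146 were higher and 240 lower, at the 75th 34 and 16, and with no floor 236 and 428. At 1.5-fold 313 of all genes were higher and 514 lower. Differences near the floor, such as that of Tbxa2r, rest on a dim signal on 1 array. No paired analysis was possible because each graft type has 1 array.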

Other observations

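Readings chosen after their values were seen add to those of the further megakaryocyte genes. Gfi1b, a repressor needed for megakaryocytes and red cells, read 192.5 in the allograft and 62.6 in the autograft, so that its ratio of at least 1.10-fold against the floor is a weak bound. The second probe set of Rgs18 read 317 in the allograft and 155.8 in the autograft, at least 1.81-fold higher, on the same side as the probe set used. The probe sets of Plek, the protein kinase C substrate pleckstrin of platelets, disagreed: the brightest stood at a log2 ratio of -0.14 and the others at 0.65 and 0.19.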
